A study of Mus musculus with 9 samples.

Results

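The genes that encode the proteins of the cytosolic ribosome were followed in podocytes, the epithelial cells that wrap the capillaries of the kidney glomerulus. They were chosen by symbol alone: Rpl or Rps followed by a number and at most a short suffix, plus Rplp0, Rplp1, Rplp2 and Rpsa. The rule found 78 of the 23309 symbols measured, 46 of the large subunit and 32 of the small subunit, each on 1 row of the table. Symbols of pseudogenes, of the ribosomal S6 kinases and of other suffixed names were left out.

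The small subunit of the ribosome reads the mRNA, and the large subunit joins the amino acids and releases the chain through its exit tunnel. The proteins are made for assembly with ribosomal RNA, and those left without a partner are usually degraded; some of them, such as the pair Rpl5 and Rpl11, can bind Mdm2, the ligase that keeps p53 low. Their mRNAs typically begin at a cytosine within a run of pyrimidines, the TOP element, through which mTOR signalling and Larp1 control their translation. Many also have processed pseudogenes, intronless copies of the mRNA in the genome, which makes short reads from them hard to place.

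The cells were isolated GFP-positive podocytes of wildtype mice aged 7-8 weeks that carry the mTmG reporter and a podocyte Cre. The Cre is driven by the promoter of a podocyte gene and switches the reporter to GFP, so the label marks cells in which that promoter has been active. All 3 groups share this genotype. The 9 libraries fall into 3 groups of 3: cells taken 14 days after ADR, cells taken 9 days after ADR, and cells of mice given PBS. ADR is the labels' abbreviation for the injurious treatment. Total RNA was depleted of ribosomal RNA and sequenced. Values are FPKM, fragment numbers scaled to transcript length and to the mapped fragments of the library. They allow levels of different genes to be compared per length, although reads shared with near-identical copies make each level uncertain. Whether the replicates come from different mice is not stated in the labels, and the p-values below therefore measure only the spread between these libraries, which may be technical.

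Depth is not given, but the spacing of low values places the day 14 libraries at 0.239 to 0.569 of the depth of PBS replicate 2, the day 9 libraries at 0.786 to 0.889 and the other PBS libraries at 1.085 and 1.082. The 15 podocyte markers were detected in every library, with a summed level of 2954 FPKM in ADR day 14 replicate 1 and 9250 to 15188 FPKM in the other 8. ADR day 14 replicate 1 also stood apart in markers of other kidney cells: 13 of 13 distal tubule and duct markers, 12 of 13 proximal tubule markers, 14 of 15 endothelial markers and 8 of 12 leukocyte markers were more than 4-fold above the highest PBS library. The summed distal level was 13357 FPKM there, 3.44 and 4.21 FPKM in the other day 14 libraries, and 9.67 to 45.9 FPKM with PBS. ADR day 9 replicate 3 had 14 of 15 endothelial, 11 of 13 distal and 9 of 12 leukocyte markers above the same limit. In bulk RNA, a change in the share of cells of a type and a change in RNA per cell cannot be told apart. Where leaving out these libraries ended a call of a named gene, this is given. Several of the values that moved are given too, but not every one.

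The start sites of the genes carry the family's shared feature, so a few are shown here with the part that the TOP element would occupy. RefSeq starts on mouse build GRCm38.p6 could be matched to 57 of the 78 genes. A start was counted as having a tract when a C followed by at least 4 C or T letters began within 10 bases on either side of it, on the strand of the gene. Of the 57 genes, 29 (50.9%) had one, against 31.7% of 7470 other protein-coding genes tested and 30.7% of all 32851 starts in the table. Each line below runs 5′ to 3′ from 30 bases before the annotated start to 20 after it, with the tract in capitals. Rpl38, Rpl34, Rpl31, Rpl14, Rpl13a and Rps21 have a tract, and Rps19, Rpl23 and Rpl4, whose levels are described below, have none by this definition.
Rpl38, chr11:114668550-114668599, + strand: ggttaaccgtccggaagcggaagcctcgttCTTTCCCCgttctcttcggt
Rpl34, chr3:130730379-130730428, - strand: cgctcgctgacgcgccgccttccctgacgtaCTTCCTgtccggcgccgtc
Rpl31, chr1:39367821-39367870, + strand: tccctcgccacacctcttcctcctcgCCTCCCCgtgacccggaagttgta
Rpl14, chr9:120571487-120571536, + strand: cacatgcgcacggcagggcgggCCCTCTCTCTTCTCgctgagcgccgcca
Rpl13a, chr7:45128726-45128775, - strand: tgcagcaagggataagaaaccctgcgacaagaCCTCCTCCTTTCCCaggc
Rps21, chr2:180257349-180257398, + strand: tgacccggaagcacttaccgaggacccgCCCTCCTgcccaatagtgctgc
Rps19, chr7:24884562-24884611, + strand: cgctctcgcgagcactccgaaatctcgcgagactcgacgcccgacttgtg
Rpl23, chr11:97782420-97782469, - strand: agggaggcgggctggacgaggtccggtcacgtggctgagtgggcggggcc
Rpl4, chr9:64173357-64173406, + strand: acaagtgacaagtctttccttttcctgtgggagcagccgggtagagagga
In Rpl38 the tract starts exactly at the annotated base. Rpl4 has a pyrimidine run before its start, but no C with at least 4 pyrimidines after it falls inside the window that was searched. The absence of a match says only that these letters are not in this window, since an annotated start can lie some bases from the one used in podocytes.

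Although the ribosome holds its proteins in nearly equal amounts, the measured mRNA levels were spread over several orders of magnitude. With PBS the means ran from 0.176 FPKM for Rps15a to 1519 FPKM for Rpl19, a ratio of 8641. The 6 genes with a PBS mean of at least 1000 FPKM, among them Rpl19, Rpl38, Rps15, Rps18 and Rps29, together held 47.5% of the family's summed level. The 26 lowest genes, all under 10 FPKM with PBS, held 0.39% of it. Between these lay 22 genes with PBS means of 10 to 100 FPKM and 24 with means of 100 to 1000 FPKM.

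The top of the order was partly kept on day 14 and varied between libraries. Rpl19, Rpl38 and Rps15 had ranks 1, 5 and 3 by mean with PBS and ranks 2, 1 and 4 on day 14. Rps29 went from rank 4 with PBS to rank 11 on day 14, and Rps18 from rank 6 to rank 10. Rpl19, a large-subunit protein, had 935, 1306 and 1760 FPKM on ADR day 14, 886, 1315 and 1244 FPKM on day 9 and 1369, 1574 and 1615 FPKM with PBS. Rpl38, whose loss disturbs the patterning of the axial skeleton of mice, had 1275, 1300.5 and 1746 FPKM on day 14, 836, 1236 and 1099 FPKM on day 9 and 1298, 934 and 1235 FPKM with PBS. Rps15 had 859, 1257 and 1559 FPKM on day 14, 957, 1472 and 1209 FPKM on day 9 and 1372, 1382 and 1352 FPKM with PBS. Every day 14 library of Rpl38 lay above every day 9 library, while day 14 and PBS overlapped. All groups overlapped in Rps15, where the day 14 and day 9 libraries spread far more widely than the PBS libraries. Rpl28 was also among the 5 highest means over all libraries.

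At the bottom, Rps15a and Rps27 were under 1 FPKM in all 9 libraries. Rps27 did not exceed 0.915 FPKM and Rps15a did not exceed 0.236 FPKM. These are mRNAs of core small-subunit proteins, and their measured level was orders of magnitude below that of Rps15. Of the Rps27 transcript, 98.7% of 36-base windows also occur in a transcript of another gene, and the Rps15a model is the longest in the family at 5179 bases. Rpl22 and Rpl27a were at or above 1 FPKM in fewer than 3 libraries. These 4 genes were not tested, which leaves 74. Rps12 is listed at 0 in ADR day 14 replicate 1, with 2.17 and 3.90 FPKM in the other day 14 libraries, 0.847 to 1.37 FPKM on day 9 and 1.22 to 1.64 FPKM with PBS. Rpl30 was under 0.001 FPKM in 5 of the 9 libraries and as high as 3.97 FPKM in ADR day 9 replicate 1, so its changes carry little information.

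The order of the 78 genes by level was nearly the same in all groups. Spearman's correlation across the 78 genes was 0.968 between the day 14 and PBS means, 0.973 between the day 14 and day 9 means and 0.994 between the day 9 and PBS means. Between any 2 libraries it lay between 0.896 and 0.996. These are correlations across genes that share the assay and the gene models, and they carry no p.

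**Figure D1:**
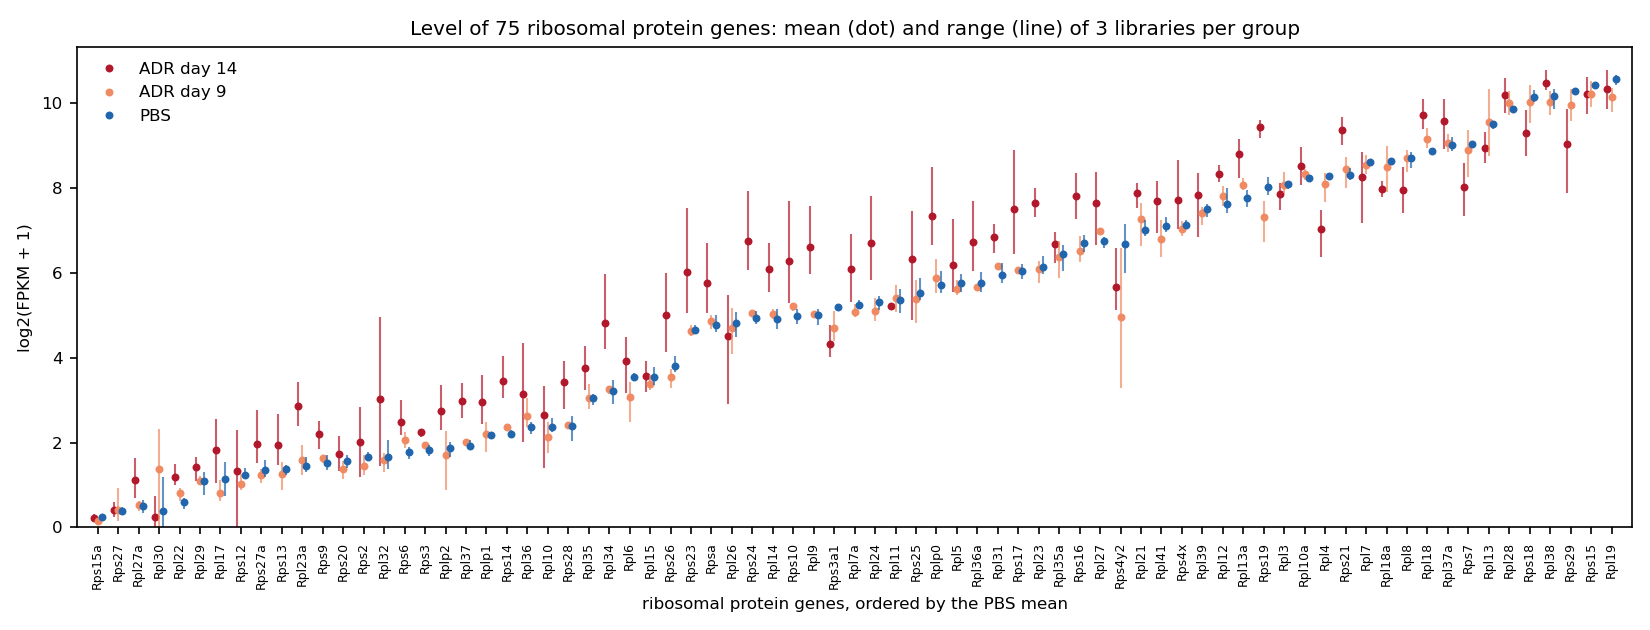
Level of 75 of the 78 ribosomal protein genes as log2(FPKM + 1), ordered from left to right by the PBS mean; dots are means and lines the range of 3 libraries in cells 14 days after ADR, 9 days after ADR and with PBS. The day 9 and PBS dots lie close together along the whole order, while many day 14 dots lie above them in the middle of the order and several lie below at the high end.

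The summed level of the family was 18132 ± 648 FPKM on day 14, 15653 ± 2475 FPKM on day 9 and 16631 ± 412 FPKM with PBS (mean ± SD, n = 3 each), or 2.54 ± 0.11%, 2.67 ± 0.38% and 2.79 ± 0.15% of all FPKM. The day 14 sums, 17403 to 18644 FPKM, all lay above the PBS sums of 16162 to 16934 FPKM. The day 14 shares, 2.42% to 2.62%, all lay below the PBS shares of 2.66% to 2.95%. The day 9 shares of 2.23% to 2.94% overlapped both groups. The sum of the large-subunit genes over that of the small-subunit genes was 1.83, 1.59 and 1.14 in the day 14 libraries, 1.47, 1.22 and 1.33 in the day 9 libraries and 1.19, 1.15 and 1.21 in the PBS libraries. All 3 day 9 libraries lay above all 3 PBS libraries in this ratio, whereas day 14 replicate 3 lay just below them.

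The median over genes behaved differently from the sum, in which the 6 most abundant genes weigh most. Relative to the PBS mean of each gene, and after subtracting the same median over all genes tested, the median ribosomal protein gene stood at 1.28, 0.88 and 0.38 on the log2 scale in day 14 replicates 1, 2 and 3. It stood at −0.17, 0.09 and −0.08 in the day 9 libraries and at 0.07, −0.09 and 0.00 in the PBS libraries. All 3 day 14 libraries lay above the other 6. Day 14 replicate 1, the library with the markers of other kidney cells and the lowest depth, held the highest value of 48 of the 74 genes tested; the part of those cells and of depth in this was not tested.

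**Figure D2:**
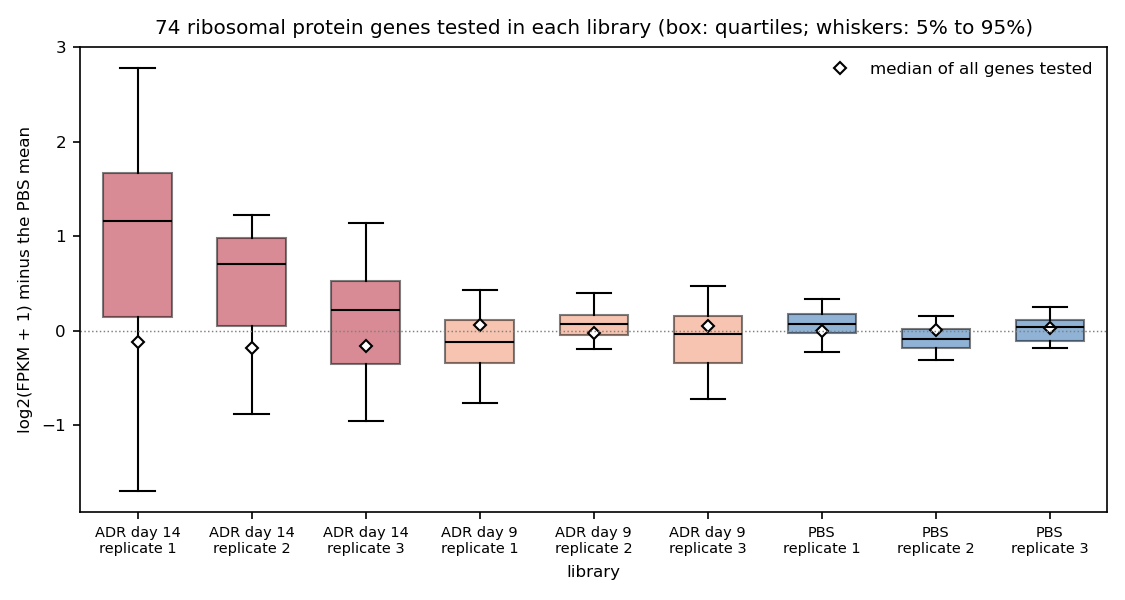
Difference of log2(FPKM + 1) from the PBS mean of the same gene for the 74 ribosomal protein genes tested, with 1 box per library (line: median; box: quartiles; whiskers: 5% to 95%); diamonds are the medians of all genes tested. The boxes of the 3 day 14 libraries lie mostly above their diamonds, with the widest spread in replicate 1, and those of the day 9 and PBS libraries are centred near 0.

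In cells taken 14 days after ADR, 15 of the 74 ribosomal protein genes tested were higher than with PBS and 1, Rpl4, was lower. These are 20.3% and 1.35% of the genes, against 6.32% higher and 10.7% lower, 17.1% in either direction, among all 9788 genes tested. Transcript length went with these counts: among 705 other genes of the family's length, given further on, 21.7% were higher and 2.27% lower. Changes are differences of log2(FPKM + 1), a scale that shrinks those of weakly expressed genes. From each the median over all genes tested was subtracted (−0.15 on day 14 against PBS, −0.22 on day 14 against day 9, 0.04 on day 9 against PBS). A gene passed when the limma adjusted p of its own unshifted change was under 0.05. The median ribosomal protein gene was 0.74 above the median gene, 57 of the 74 were above it, and the changes ran from −1.10 to 1.97. Without day 14 replicate 1 the counts were 11 higher and 1 lower with a median of 0.56. Without both libraries that carry markers of other kidney cells they were 12 and 1 with a median of 0.56. Over all genes the counts in these settings were 664 and 1199 of 9568, and 789 and 1398 of 9377. Rpl13a, Rps16, Rpl31 and Rpl18 no longer passed in the first of these settings, and Rpl13a, Rps16 and Rpl31 in the second. With a trend of change on length and GC content removed from all genes, 1 ribosomal protein gene was higher and 8 were lower, with a median of 0.13. Of all 9732 genes in that fit, 228 were higher and 759 lower.

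The 15 genes that rose were 10 of the 44 large-subunit genes tested and 5 of the 30 small-subunit genes, with medians of 0.78 and 0.73 over each subunit. Rps19, a small-subunit protein needed to mature the 18S rRNA and mutated in human Diamond-Blackfan anaemia, had 772, 581 and 752 FPKM on day 14, 105, 205 and 186 FPKM on day 9 and 244, 227 and 307 FPKM with PBS. Every day 14 library was above every other library, and day 14 replicate 1 did not stand out from the others of its group. The change against PBS was 1.58 (SE 0.29, limma adjusted p = 0.018).

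Rpl23, a large-subunit protein that can bind Mdm2, had 254, 201 and 158 FPKM on day 14, 75.3, 76.6 and 52.8 FPKM on day 9 and 83.4, 64.0 and 61.3 FPKM with PBS. The day 14 libraries were again separate from all others, and the change against PBS was 1.67 (SE 0.26, limma adjusted p = 0.0114). Rpl23a, which lies beside the exit tunnel and docks the signal recognition particle, was a low gene with 9.82, 4.25 and 5.85 FPKM on day 14, 1.99, 2.86 and 1.35 FPKM on day 9 and 2.16, 1.47 and 1.54 FPKM with PBS. Its change was 1.58 (SE 0.33, limma adjusted p = 0.0235).

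In several others day 14 replicate 1 was far above its own group. Rps24, another gene mutated in human Diamond-Blackfan anaemia, had 242, 76.1 and 65.8 FPKM on day 14, 30.3, 33.6 and 32.2 FPKM on day 9 and 33.3, 26.7 and 28.6 FPKM with PBS. Its change against PBS was the largest of the family, 1.97 (SE 0.44, limma adjusted p = 0.0264), and it was 1.41 without replicate 1. Rpl9, a large-subunit protein, had 191, 76.4 and 61.6 FPKM on day 14, 31.4, 32.4 and 31.9 FPKM on day 9 and 33.3, 26.1 and 34.5 FPKM with PBS. Its change was 1.75 (SE 0.38, limma adjusted p = 0.0264) with replicate 1 and 1.29 without it. The 3 day 9 libraries of both genes lay within a few FPKM of each other.

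Rplp0 forms the base of the ribosomal stalk, the arm that recruits the elongation factors, and holds Rplp1 and Rplp2. It had 358, 100.01 and 118 FPKM on day 14, 45.1, 55.1 and 79.2 FPKM on day 9 and 64.8, 45.1 and 46.1 FPKM with PBS. Its change was 1.79 (SE 0.46, limma adjusted p = 0.0435), and 1.24 without day 14 replicate 1. Its partners Rplp1 and Rplp2 did not pass the test: the changes were 0.94 and 1.01, from means of 7.25 and 6.02 FPKM on day 14, 3.69 and 2.52 FPKM on day 9 and 3.50 and 2.67 FPKM with PBS.

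Rps14, which lies on the platform of the small subunit and is lost in the human 5q deletion syndrome, had 15.6, 8.66 and 7.32 FPKM on day 14, 4.29, 4.29 and 3.96 FPKM on day 9 and 3.92, 3.72 and 3.28 FPKM with PBS. Its change was 1.39 (SE 0.29, limma adjusted p = 0.0249). Rpl13a, which in human monocytes can leave the ribosome to silence inflammatory mRNAs, had 569, 505 and 301 FPKM on day 14, 299, 245 and 261 FPKM on day 9 and 245, 186 and 216 FPKM with PBS. Its change was 1.19 (SE 0.27, limma adjusted p = 0.0349), and the day 14 libraries stayed above all others, replicate 3 by only a few FPKM. Without day 14 replicate 1 its adjusted p was 0.0559, and over its 23 alternatives the adjusted p ran from 0.0175 to 0.278.

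The other genes that rose were Rpl34, Rpl14, Rps16, Rps21, Rpl37, Rpl31 and Rpl18, with changes of 1.01 to 1.74. Rps16, Rpl31 and Rpl18 did not pass without day 14 replicate 1, where their changes were 1.01, 0.91 and 0.86. Rpl34 had 61.8, 17.5 and 18.3 FPKM on day 14, 7.82, 9.02 and 9.11 FPKM on day 9 and 8.75, 6.50 and 10.04 FPKM with PBS. Its change against PBS was 1.74, and 1.19 without day 14 replicate 1. Rps21 had 696, 818 and 513 FPKM on day 14, 425, 388 and 255 FPKM on day 9 and 355, 295 and 292 FPKM with PBS. Rpl18 had 1084, 667 and 835 FPKM on day 14, 540, 487 and 680 FPKM on day 9 and 485, 434 and 477 FPKM with PBS. In all 15 the day 14 libraries lay above every PBS library.

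Rpl4, whose extension lines the exit tunnel, was the gene that fell. It had 82.2, 153 and 178 FPKM on day 14, 201, 324 and 309 FPKM on day 9 and 295, 322 and 319 FPKM with PBS. Its change was −1.10 (SE 0.32, limma adjusted p = 0.0328), and −0.74 without day 14 replicate 1. Several small-subunit genes had values of the same kind without passing the test. Rps29, a small zinc-binding protein of the small subunit, had 236, 643 and 926 FPKM on day 14, 767, 1295 and 969 FPKM on day 9 and 1239, 1184 and 1295 FPKM with PBS. Its change was −1.10 (SE 0.47, limma adjusted p = 0.097), and −0.51 without day 14 replicate 1. Rps7, a small-subunit protein that can bind Mdm2, and Rps3a1 had changes of −0.87 and −0.72 (limma adjusted p = 0.093 and 0.0578). Without day 14 replicate 1 the change of Rps7 was −0.51 and that of Rps3a1 −0.54. In Rpl4, Rps29, Rps7 and Rps3a1 every day 14 library lay below every PBS library.

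**Figure D3:**
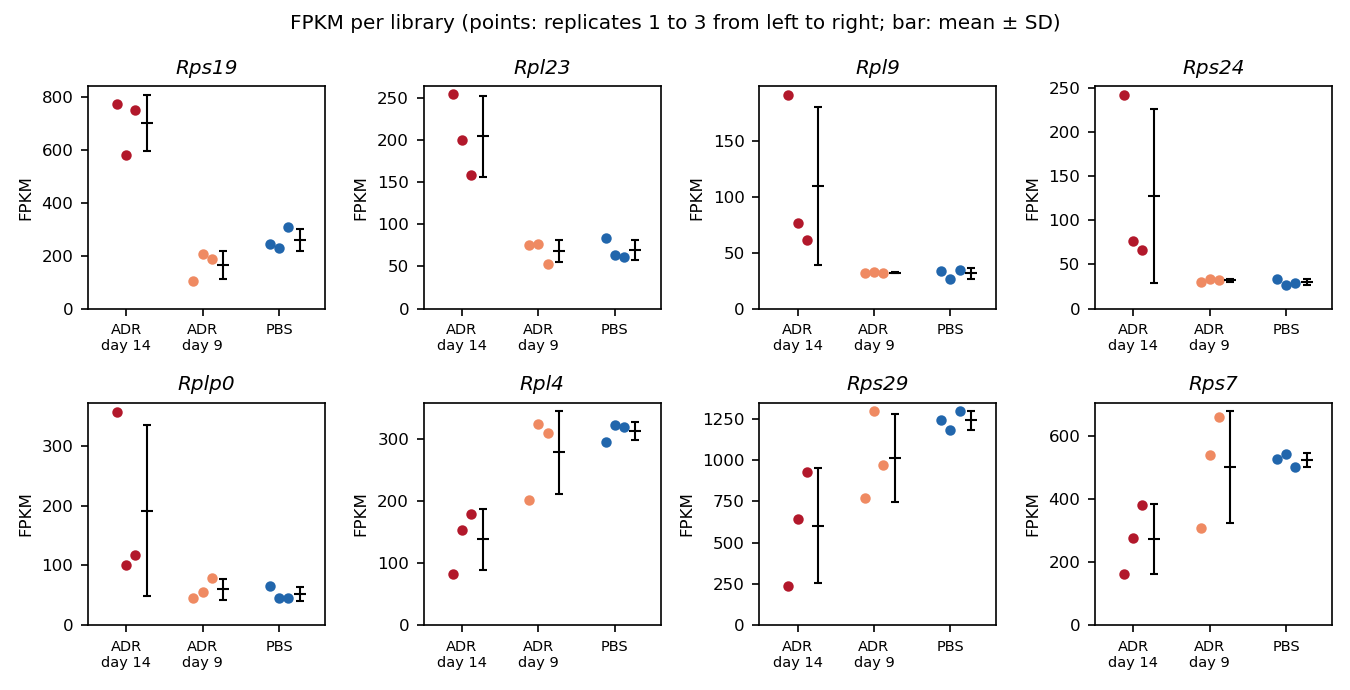
FPKM in each of the 9 libraries for 8 ribosomal protein genes, with cells 14 days after ADR on the left, 9 days after ADR in the middle and PBS on the right; points are replicates 1 to 3 and bars the mean ± SD. Rps19, Rpl23, Rpl9, Rps24 and Rplp0 lie highest on day 14, with replicate 1 far above the others in Rpl9, Rps24 and Rplp0, and Rpl4, Rps29 and Rps7 have their lowest mean on day 14.

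Counting libraries rather than adjusted p, 31 of the 74 genes (41.9%) had every day 14 library above every PBS library, against 15.6% of all genes tested, and 8 (10.8%) had every day 14 library below, against 23.8%. With day 14 replicates 2 and 3 alone, 34 genes (45.9%) lay above all PBS libraries, against 21.3% of all genes tested, and 8 (10.8%) lay below, against 33.7%. None of these shares over all genes is matched for transcript length. By adjusted p, 21.7% of the other genes of the family's length were higher than with PBS. Of the ribosomal protein genes of that length, 23.7% were. Of the 2 genes whose products bind Mdm2 as a complex with the 5S rRNA, Rpl5 had 154, 52.1 and 45.7 FPKM on day 14, 43.2, 46.5 and 56.0 FPKM on day 9 and 45.8, 53.3 and 61.7 FPKM with PBS. Only day 14 replicate 1 stood above the rest. Rpl11 had 35.5, 34.7 and 38.3 FPKM on day 14, 33.0, 42.2 and 51.4 FPKM on day 9 and 40.7, 32.0 and 48.4 FPKM with PBS, and the groups overlapped throughout. Rps6, the protein phosphorylated by the S6 kinases, had 6.97, 3.49 and 3.91 FPKM on day 14, 2.68, 3.16 and 3.79 FPKM on day 9 and 2.61, 2.05 and 2.73 FPKM with PBS; its change of 0.85 did not pass the test (limma adjusted p = 0.117).

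The count of genes that passed against PBS moved with the libraries in the fit, for causes that were not tested. It was 4, 0 and 0 without PBS replicates 1, 2 and 3, where 22, 16 and 20 of the genes were higher at an unadjusted limma p under 0.05, 7 and 6 without day 9 replicates 1 and 2, and 30 without day 14 replicate 3. The count over all genes moved too: 409, 0 and 54 were higher without PBS replicates 1, 2 and 3, 441 and 396 without day 9 replicates 1 and 2, and 732 without day 14 replicate 3, against 619 with all libraries. At the unadjusted p, all genes were counted only with all libraries. There 1248 of all 9788 genes and 29 of the 74 ribosomal protein genes were higher.

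Set against day 9, the day 14 cells had 11 of 74 ribosomal protein genes higher (14.9%) and 0 lower, against 5.71% and 9.98% of all genes tested, 15.7% in either direction. This comparison uses the same day 14 libraries as the one above. The shares over all genes in this paragraph are not matched for transcript length. Among 705 other genes of the family's length, 22.0% were higher and 1.42% lower. Of the 38 ribosomal protein genes of that length, 21.1% were higher and 0 lower. At an unadjusted limma p under 0.05, 27 of the genes were higher and 3 lower, against 1174 and 2190 of all 9788 genes tested. The median change was 0.82, 62 of 74 genes lay above the median gene, and 28 (37.8%) had every day 14 library above every day 9 library, against 13.2% of all genes tested. Rpl30 apart, the lowest changes were those of Rpl4, −0.84 (SE 0.32, limma adjusted p = 0.0569), Rps29, −0.71, and Rps7, −0.67, none of which passed. Without day 14 replicate 1 they were −0.50, −0.14 and −0.33. In 1 gene every day 14 library lay below every day 9 library (1.35%, against 24.6% of all genes tested); it was Rpl4.

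Rps19 had the largest change, 2.34 (SE 0.29, limma adjusted p = 0.00999), with a mean of 702 ± 105 FPKM on day 14 and 166 ± 53 FPKM on day 9 (SD, n = 3 each). It was followed in size by Rps24 at 1.92, Rpl24 at 1.82, Rpl23 and Rpl9 at 1.78 and Rpl34 at 1.76. Without day 14 replicate 1 the changes of Rps24, Rpl24, Rpl9 and Rpl34 were 1.34, 1.28, 1.30 and 1.19. Those of Rps19 and Rpl23 were 2.27 and 1.61 there. Rpl24, a large-subunit protein that forms a bridge to the small subunit and whose mutation gives the Belly spot and tail mouse, had 222, 87.3 and 56.3 FPKM on day 14, 31.4, 41.1 and 28.2 FPKM on day 9 and 42.6, 33.7 and 40.2 FPKM with PBS. It passed against day 9 (SE 0.44, limma adjusted p = 0.0422) and not against PBS, where the change was 1.54 (limma adjusted p = 0.0619). The other 5 that rose, Rps16, Rpl23a, Rps14, Rpl14 and Rpl37, had changes of 1.17 to 1.50.

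The count against day 9 was 6 without the libraries that carry markers of other kidney cells, 5, 2 and 6 without PBS replicates 1, 2 and 3, 2, 3 and 2 without day 9 replicates 1, 2 and 3, and 24 without day 14 replicate 3. Over all genes the higher count moved too, from 559 with all libraries. In the same order it was 447, then 416, 279 and 441, then 210, 224 and 137, and 586. Rps16, Rpl23a, Rps14, Rpl14, Rpl37 and Rpl24 did not pass without the libraries that carry markers of other kidney cells. Rps19 passed against day 9 in all 23 alternative settings and Rpl23 in 22 of them.

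**Figure D4:**
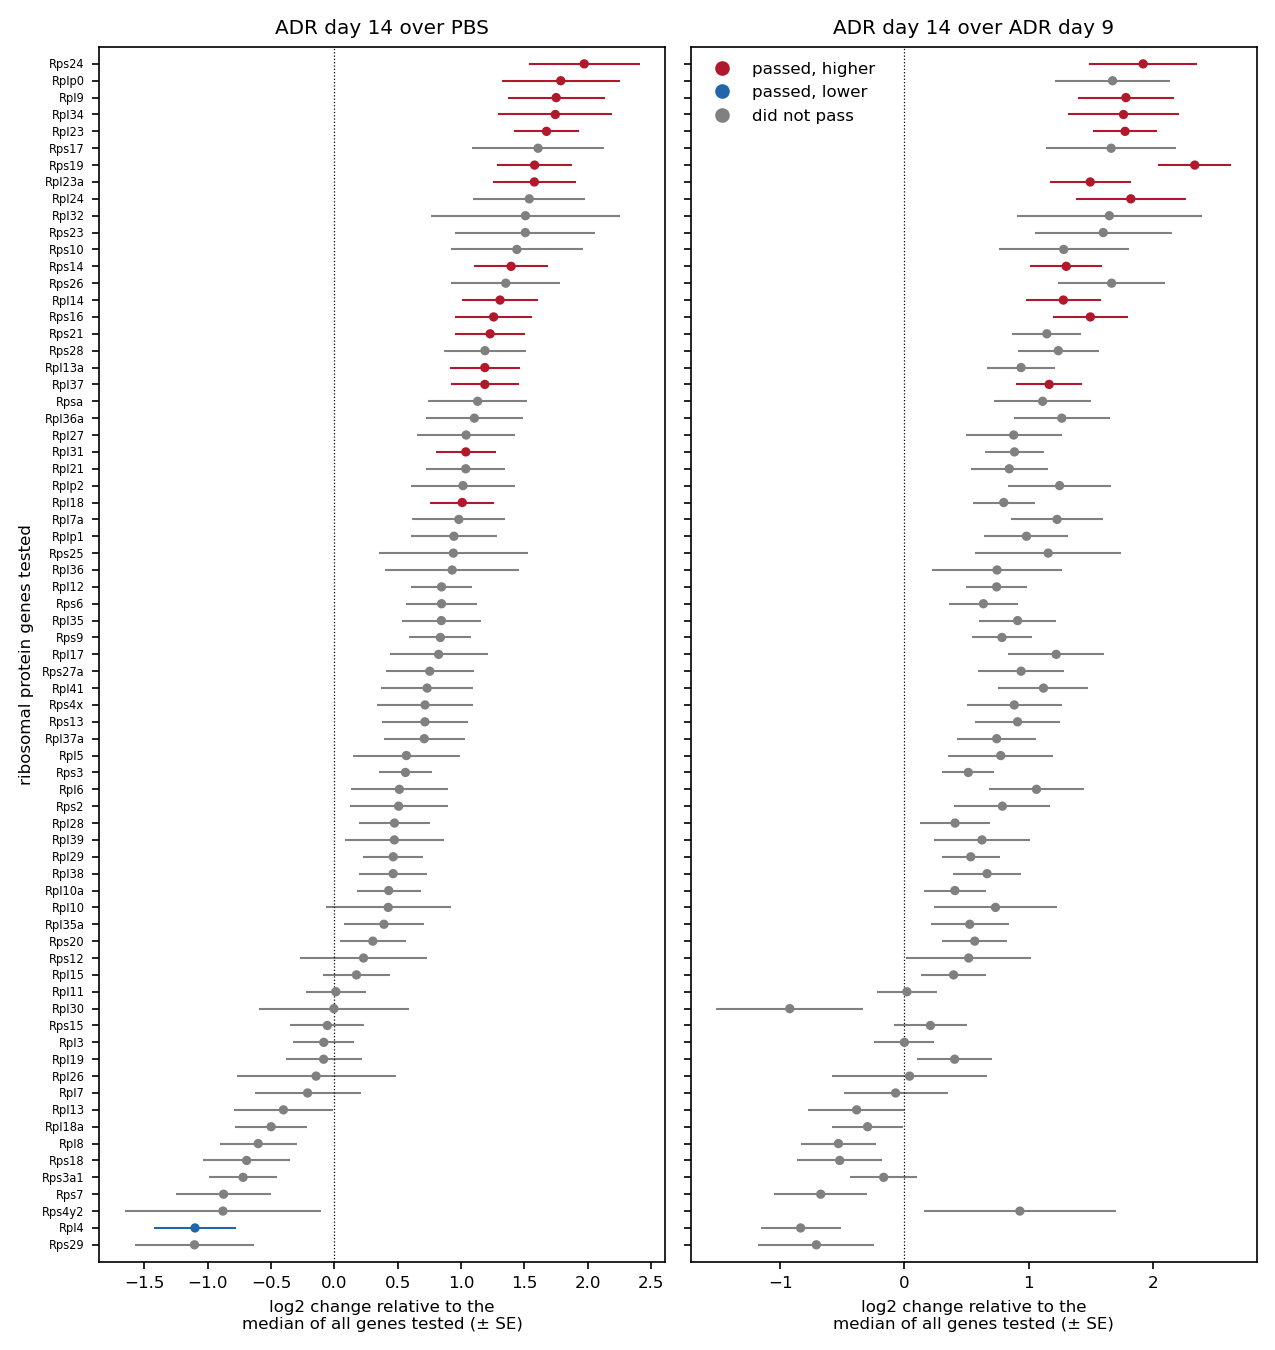
Log2 change of 71 of the 74 ribosomal protein genes tested, relative to the median of all genes tested, with bars of ± SE; the left panel is day 14 over PBS and the right panel day 14 over day 9, with genes in the order of the left panel and coloured by whether the limma adjusted p was under 0.05. The changes run from −1.10 to 1.97 on the left and from −0.92 to 2.34 on the right, with Rpl4 as the gene that passed with a lower level.

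On day 9 the ribosomal protein genes were close to their PBS levels. None of the 74 passed the limma test in either direction, where 0% of all genes did. At an unadjusted p under 0.05, 1 gene, Rps19, was lower and 0 were higher, against 118 and 186 of all genes tested. The median change was −0.10, with 27 genes above and 47 below the median gene. Every day 9 library lay above every PBS library in 3 genes (4.05%, against 6.77% of all genes tested) and below in 4 (5.41%, against 6.63%).

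Rps19 had a day 9 change of −0.72 (unadjusted p = 0.0446, limma adjusted p = 1 after rounding), with all 3 day 9 libraries below all 3 PBS libraries. Its day 9 change and its day 14 change thus had opposite signs against the same PBS libraries. Rps4y2, an older symbol of the gene now called Rps4l, had widely scattered values: 34.0, 95.1 and 37.5 FPKM on day 14, 8.78, 95.4 and 30.1 FPKM on day 9 and 62.8, 119 and 141 FPKM with PBS. Its day 9 change of −1.78 had an SE of 0.77. Next by p on the lower side, Rps3a1, Rpl19 and Rpl6 had changes of −0.52, −0.46 and −0.52. On the higher side, the smallest p besides that of Rpl30 belonged to Rpl13a, Rpl18, Rps6, Rpl21 and Rpl31, with changes of 0.18 to 0.28. None of these passed.

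The size of the day 14 change varied with the level of the gene. For the 21 genes with PBS means of 1 to 10 FPKM, the median change of day 14 over PBS was 0.84 and 4 rose; for the 22 genes of 10 to 100 FPKM it was 1.12 and 6 rose; for the 24 genes of 100 to 1000 FPKM it was 0.47, 5 rose and 1 fell. For the 6 genes of at least 1000 FPKM it was −0.25 and none passed. Levels and changes here share the PBS libraries. Over pairs that share no library, Spearman's correlation across the 74 genes was −0.386 between the PBS level and the change of day 14 over day 9, and −0.333 between the day 9 level and the change of day 14 over PBS. Points in such a correlation share the libraries of each change, and it carries no p.

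**Figure D5:**
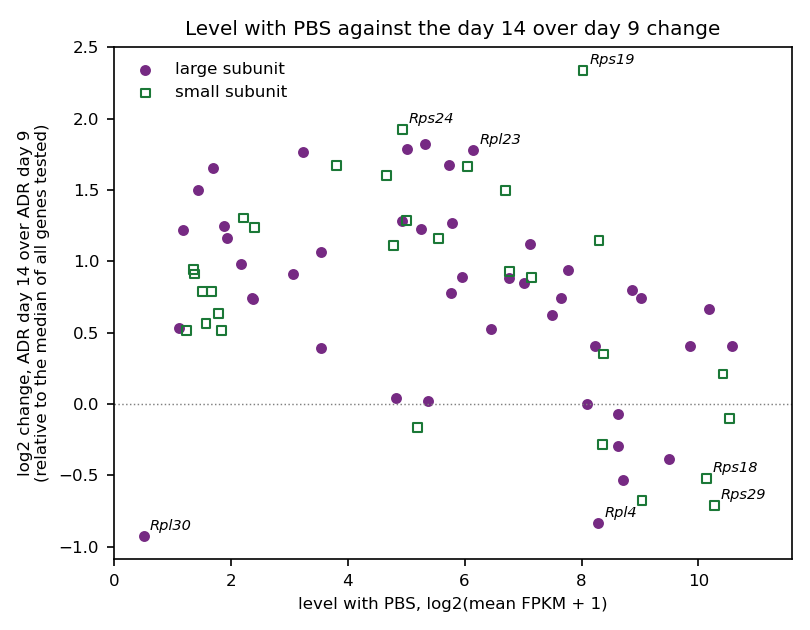
PBS level as log2(mean FPKM + 1) on the x axis against the log2 change of day 14 over day 9, relative to the median of all genes tested, on the y axis, for 74 ribosomal protein genes; filled circles are large-subunit and open squares small-subunit genes. Changes above 1 occur across the low and middle levels, Rps19 stands at 2.34, and the 6 genes of at least 1000 FPKM run from −0.71 for Rps29 to 0.67 for Rpl38 (Spearman's correlation over all 74 is −0.386).

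The transcripts of the family are short, and transcript length went with the day 14 changes among all genes. The median length was 853 bases, from 345 to 5179, against 2764 bases over the genes tested, and the median GC content was 51.8% against 50.3%. Among 705 other genes tested of 612 to 1108 bases, the middle range of the family, 153 (21.7%) were higher on day 14 than with PBS and 16 (2.27%) lower, with a median change of 0.70. Among the 38 ribosomal protein genes of that length, 9 (23.7%) were higher and 0 lower, with a median of 0.83. Against day 9, 155 (22.0%) of the other short genes were higher and 10 lower, with a median of 0.78, as were 8 (21.1%) and 0 of the ribosomal protein genes, with a median of 0.89. With the trend of change on length and GC content removed from all genes, 1 ribosomal protein gene rose and 8 fell on day 14 against PBS and the median was 0.13; against day 9, 1 rose and 6 fell with a median of 0.16. In the same fit 228 of all 9732 genes rose and 759 fell against PBS, and 183 rose and 560 fell against day 9. Within the family, length was almost unrelated to the change of day 14 over PBS (Spearman's correlation −0.043 across 74 genes).

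Near-identical copies were counted from the transcripts of the GENCODE annotation, pseudogenes included. Every one of the 78 genes shared at least 1 stretch of 36 bases with a pseudogene, the median gene with 12 pseudogenes, and the median share of its 36-base windows found in a transcript of another gene was 56.3%. The share reached 98.7% for Rps27. It was 93.5% for Rpl9, 50.5% for Rplp0, 46.0% for Rps19, 26.5% for Rpl4 and 24.1% for Rps24, the largest share of the 5 being that of Rpl9. Across the genes this share was weakly related to the PBS level (Spearman's correlation −0.120) and to the change of day 14 over PBS (−0.002). Genes with a tract at the start had 6 of 26 higher on day 14 than with PBS and a median change of 0.85; genes without it had 7 of 27 and 0.72. Against day 9 the counts were 2 of 26 with a tract and 7 of 27 without, and the medians 0.84 and 0.89.

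Ribosomal protein genes whose symbols fall outside the pattern were counted apart. Of 7 tested, 2 were higher on day 14 than with PBS and 0 lower, with a median change of 1.11. Rpl36al, a paralog of Rpl36a, was among them at 1.65 (limma adjusted p = 0.0325). Rps27l, a paralog of Rps27, did not pass against PBS (1.50, limma adjusted p = 0.0558) but was higher than on day 9, with a change of 2.47 (limma adjusted p = 0.0141). Fau, which fuses a ubiquitin-like protein to Rps30, had a change of 0.32 against PBS.

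Other genes of translation are set against the 6.32% of all genes that were higher and the 10.7% that were lower. Of 18 other translation genes with TOP mRNAs, 1 was higher on day 14 than with PBS, Eif3e (1.21), and 2 were lower, the elongation factor Eef2 (−0.78) and the initiation factor subunit Eif3k (−1.30); the median change was 0.07. At an unadjusted limma p under 0.05, 7 of the 18 differed, against 3348 of all 9788 genes. Eif3e did not pass without day 14 replicate 1, nor without both libraries that carry markers of other kidney cells. Its change was 0.94 in each of these fits. The change of Eif3k was −0.89 without day 14 replicate 1. Of 34 ribosome biogenesis genes, 1 was higher, Polr1c (1.30), a subunit of RNA polymerases I and III, and 3 were lower, with a median of 0.17; 16 of the 34 differed at an unadjusted p under 0.05. The 3 were the pre-rRNA processing factors Rrp9 (−1.36) and Bop1 (−1.05) and the small-subunit assembly factor Tsr1 (−0.52). Without day 14 replicate 1 their changes were −0.933, −0.835 and −0.424. Of 14 regulators of growth and of TOP mRNAs, 0 were higher and 1 was lower, Tsc2 (−1.04), which restrains mTOR. At an unadjusted limma p under 0.05, 3 of these regulators were higher and 1 lower, against 1248 and 2100 of all 9788 genes. Among the 4 genes of the Mdm2 and p53 link, Trp53 was lower (−1.14, limma adjusted p = 0.0453) and Mdm2 did not pass (−0.09). Trp53 did not pass without day 14 replicate 1 (−1.08) or without both libraries that carry markers of other kidney cells (−1.08), and it passed in 1 of the 9 fits with 1 library left out.

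Against day 9, the day 14 cells had 2 of the 7 genes outside the pattern higher, 1 of the 18 other TOP genes higher and 3 lower, and 2 of the 34 biogenesis genes higher and 2 lower. Of all genes tested, 5.71% were higher and 9.98% lower against day 9. Eef1g (−0.64) was lower in this comparison along with Eef2 and Eif3k, and Nop58 (1.47), a core protein of the snoRNA particles that methylate rRNA, was higher along with Polr1c. Among the regulators, Eif4ebp1 (1.35), an mTOR target that blocks Eif4e, and Larp7 (0.85) were higher, and Eif4ebp2 (−1.31) and Tsc2 (−0.96) were lower. Eif3k did not pass without day 14 replicate 1. Without the libraries that carry markers of other kidney cells, Eif3k, Eef2, Eif3e, Nop58, Eif4ebp2 and Tsc2 did not pass. Tsr1, also lower against day 9 (−0.54), did not pass there either (−0.42, limma adjusted p = 0.0657). Larp7 passed in 0 of the 6 fits with 1 library left out in which it was tested, and Eif4ebp1 in 2 of 6. Eef1g passed in 1 of 9 such fits. The differences between these lists and the ribosomal protein genes were not tested.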

How the data were processed

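RNA was measured in 9 libraries, 3 per group, from GFP-positive podocytes, after depletion of ribosomal RNA with a Ribo-Zero kit, per the labels' protocols. The authors deposited 1 table of FPKM per gene with 1 column per library. Bowtie 0.12.7, Cufflinks and the build mm9 are listed, without roles, per the submitters' processing notes. Not given in the sources used here are the Cufflinks version, the gene annotation, whether strand was used and how multi-mapping reads were counted. Columns headed control were taken as the PBS libraries by their replicate number. Depth was estimated from the most frequent ratio between libraries of values under 0.3 FPKM; with no read counts, no counting interval can be given.

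Symbols on several of the 23813 rows were represented by their row of highest mean. The 9788 genes that reached 1 FPKM in 3 or more libraries were tested with limma 3.58.1 in R 4.3.3 on log2(FPKM + 1), with a variance trend, all 9 libraries, the group as the only term and Benjamini-Hochberg adjustment within each of the 3 comparisons. Tests are two-sided and used the values as deposited. Members named are those with the smallest p in each direction (up to 12 that passed, or 6 where fewer passed), the 5 highest and lowest by mean, those under 1 FPKM throughout, and a set of well-studied members; other members were named after their values were seen. The members and lists were chosen with earlier results of these data known. Transcript lengths and shared windows come from GENCODE M21 transcripts, since a genome sequence was not used here, and starts from RefSeq (GRCm38.p6). The fit was tested on simulated data. Same-numbered libraries of different groups did not deviate together (correlations of −0.265 to 0.431 over 9 pairs), so the numbers were not used to pair them. Alternatives covered the pseudocount, filter, scaling, row choice, variance trend, samples in the fit, replicate block, libraries with other cells' markers, Y-linked transcripts, length and GC content, the threshold, and each library left out. A few genes are not reported here by name and are left out of the plots that label genes; the counts include them.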

Additional observations from a re-analysis of the deposited data

Results flagged for a closer look

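By the limma test of day 14 against day 9, 11 of the 74 ribosomal protein genes differed, all higher (14.9%, against 5.71% of all genes tested). Among other genes of the family's length 22.0% were higher, against 21.1% of the ribosomal protein genes of that length. The same test compares the effects of both days against PBS, since these share the PBS libraries. The labels give no day for the PBS libraries, so time, ADR and the depth of the groups cannot be told apart here. The differences, relative to the median of all genes tested, were 2.34 for Rps19, 1.92 for Rps24, 1.82 for Rpl24, 1.78 for Rpl23, 1.78 for Rpl9, 1.76 for Rpl34, 1.50 for Rps16, 1.50 for Rpl23a, 1.30 for Rps14, 1.28 for Rpl14 and 1.17 for Rpl37. In Rps19 the day 14 effect was 1.58 and the day 9 effect −0.72. In all 11 genes every day 14 library lay above every day 9 library. Rps16, Rpl23a, Rps14, Rpl14, Rpl37 and Rpl24 did not pass without the libraries that carry markers of other kidney cells. With a trend on length and GC content removed, 1 ribosomal protein gene was higher, against 183 of all 9732 genes.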

How the results depend on the processing

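The day 9 counts against PBS were 0 in every alternative, and their median change stayed between −0.18 and 0.01. No result changed sign among the values that had passed the test, and the medians on day 14 stayed above 0 in every alternative. On day 14 against PBS, 15 genes higher and 1 lower became 3 and 0 without a filter, 6 and 5 with a common total, 2 and 0 with only the groups compared in the fit, 0 and 0 with a term for Y-linked transcripts (15 and 6 at an unadjusted limma p under 0.05, and 0 of all genes adjusted), and 1 and 8 once a trend on length and GC content was removed, where the median was 0.134. The lower count was 2 with a filter at 5 FPKM, 0 with median-of-ratios scaling, 2 with quantile normalization and 5 at a threshold of 0.1. Against day 9, 11 higher and 0 lower became 2 higher without a filter, 6 higher and 2 lower with a common total, 2 higher with only the groups compared, 6 higher without the libraries carrying markers of other kidney cells, 7 higher with the Y-linked term, 19 higher and 1 lower at the threshold of 0.1, and 1 higher and 6 lower with the length and GC trend removed, where the median was 0.163. The lower count there was 1 with the filter at 5 FPKM and 1 with quantile normalization. With each library left out, the higher count ran from 0 to 30 and the lower from 0 to 5 against PBS, and from 2 to 24 and 0 to 1 against day 9; the medians ran from 0.559 to 1.022 and from 0.631 to 1.144. The unfiltered fit tests 19046 genes; the causes of these differences were not tested.

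With the replicate number as a block, 11 genes were higher and 1 lower against PBS, and 8 higher and 1 lower against day 9. Over all genes that block gave 520 higher and 781 lower against PBS, and 452 and 748 against day 9. The numbers do not pair the libraries, and 2 of 9 libraries correlated best with another of their own number. Over all alternatives, 1169 values of single genes kept their side of the threshold, 497 lost a pass and 32 gained one. The 1169 hold passes that were kept together with genes that had not passed and still did not. Day 14 libraries had the lowest depth, so low genes are least precise there.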
